A study of Homo sapiens with 4 samples.

Results

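The BCL2 family decides whether the mitochondrial outer membrane stays intact when a cell is under stress. Survival proteins such as BCL2, BCL-xL (from BCL2L1) and MCL1 bind and hold back the effectors BAX and BAK (from BAK1), which otherwise form pores that release cytochrome c. BH3-only proteins, named after the single short domain they share with the rest of the family, carry stress signals by occupying the survival proteins or by engaging the effectors directly. Of the genes in the deposited table, 10 of 16839 were examined here. Their rule is a list of symbols and uses no measured value, but it was drawn up with earlier results of these data known. They were the survival genes BCL2, BCL2L1 and MCL1, the effectors BAX and BAK1, and the BH3-only genes BBC3, PMAIP1, BCL2L11, BID and BAD. All 10 had a row.

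The cells were D458, an established human medulloblastoma line, a tumour of the cerebellum. They had received viral particles with either a non-targeting control hairpin (shNull) or a short hairpin RNA against SETD8 (shSETD8), and both groups were selected in 1 µg/mL puromycin for 14 days. SETD8, also named KMT5A, is the enzyme that adds the first methyl group to lysine 20 of histone H4. Each group had 2 libraries, from separate clones by the labels, so clone and hairpin cannot be told apart in a single library, and p-values measure the spread between these clones. The labels list several gene-specific hairpins without tying them to clones. In bulk RNA, fewer cells with a transcript and less of it per cell cannot be told apart.

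Libraries held 40908334 to 52627366 counts. SETD8 was at 38.9 and 41.6 CPM (counts scaled to normalised library size) in shNull replicates 1 and 2, and at 14.0 and 26.4 CPM in shSETD8 replicates 1 and 2, while the labels give a knockdown of 80%. Its log2 fold change was -0.998 ± 0.303 (SE), with an adjusted p of 0.421 by edgeR and 0.0459 by DESeq2. MYC and OTX2, known to be high in this kind of tumour, stood at 2597 and 2115 CPM in the library where each was lowest. They belong to a list of 6 tumour markers. Of these, OTX2, SOX4 and SOX11 lay below both controls in each shSETD8 clone, as did 22.4% of all genes tested. SOX4 was called by DESeq2 (adjusted p = 0.0429) but not by edgeR (adjusted p = 0.365). The groups overlapped for MYC, STMN1 and NES. NES reached 212 CPM in shSETD8 replicate 1, while replicate 2 had 61.6 CPM. Of the marker lists for other cell types, those for endothelium and glia summed to at most 0.553 CPM and that for blood to at most 5.57 CPM. The fibroblast list summed to 70.6 and 61.2 CPM in shNull and to 41.3 and 50.6 CPM in shSETD8. Within it DCN and LUM, which make up most of the sum, were lower in both shSETD8 libraries, as were 22.4% of all genes tested. COL1A1 and PDGFRB were higher in both, as were 22.9% of genes, and COL1A2 was at most 0.294 CPM. LUM, but no other gene of the list, was called by DESeq2 (adjusted p = 0.00966), and edgeR did not call it (adjusted p = 0.368). The photoreceptor list summed to 233 CPM in shSETD8 replicate 2 against 55.2 to 74.6 CPM in the other libraries, 170 CPM of it from NRL, which stood at 22.3 CPM in replicate 1, below both controls. PDE6H of that list stood at 1.13 and 1.78 CPM in the shNull libraries and 9.46 and 35.9 CPM in the shSETD8 libraries (DESeq2 adjusted p = 0.00325, edgeR adjusted p = 0.356), and the groups overlapped for CRX. The epithelial list summed to 4.02 and 10.8 CPM in shSETD8 against 0.272 and 0.409 CPM in shNull. Nearly all of the shSETD8 sum came from KRT8 and KRT18. Their DESeq2 adjusted p-values were 1.8e-05 and 4.9e-07, and their edgeR adjusted p-values 0.352 and 0.320. EPCAM and CDH1 of that list were at most 0.153 CPM in any library. The part of cells with any of these markers in the values below was not tested.

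All 10 proteins carry a BH3 domain, the amphipathic helix through which family members bind each other. The coding stretches below, from the principal transcripts of GENCODE release 29 (GRCh38), are shown because this helix is what joins survival and death members into a single network; they run 5′ to 3′ on the coding strand, with the 8 codons of the BH3 core in capitals and 4 codons on either side in lower case.
BCL2: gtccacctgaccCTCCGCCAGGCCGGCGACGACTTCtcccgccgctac
BCL2L1: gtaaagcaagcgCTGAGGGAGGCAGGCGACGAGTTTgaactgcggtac
MCL1: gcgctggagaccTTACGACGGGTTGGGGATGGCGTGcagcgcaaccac
BAX: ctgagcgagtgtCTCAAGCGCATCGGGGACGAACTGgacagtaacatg
BAK1: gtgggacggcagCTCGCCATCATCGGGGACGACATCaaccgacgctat
BBC3: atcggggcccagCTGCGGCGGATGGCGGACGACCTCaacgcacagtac
PMAIP1: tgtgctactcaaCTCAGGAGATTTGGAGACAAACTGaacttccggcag
BCL2L11: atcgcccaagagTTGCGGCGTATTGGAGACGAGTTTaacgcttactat
BID: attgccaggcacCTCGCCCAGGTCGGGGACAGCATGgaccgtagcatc
BAD: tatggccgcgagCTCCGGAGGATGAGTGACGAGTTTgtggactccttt

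The core was located by a pattern on the encoded residues: a leucine at the start, a small residue and an aspartate at the fifth and sixth codons, and hydrophobic residues at the fourth and eighth. Each of the 10 coding sequences held exactly 1 match, among 54 codons in PMAIP1, the shortest, and 350 in MCL1, the longest. For members, principal transcripts with a match were taken first, so finding a match was favoured by the search. The pattern also occurred in 3.67% of 19479 human genes with a complete coding sequence, so a match by itself does not mark a family member. That share used the longest principal coding sequence of each gene, without a preference for a match. Over the 24 core bases, pairs of members shared 9 to 17 bases. The pattern itself fixes some residues, and no baseline from unrelated genes with a match was worked out. The 4 pairs with 17 shared bases were BCL2 with BCL2L1, BCL2L11 with BAD, BAX with PMAIP1, and BAK1 with BID, so 2 of them joined an effector to a BH3-only gene. The lowest, 9 bases, was between BCL2L11 and BID, both BH3-only.

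None of the 9 BCL2 family genes with an adjusted p passed edgeR's quasi-likelihood test or DESeq2 between shSETD8 and shNull. Over the whole table, these tests called 0% and 1.94% of genes. The log2 fold changes of the 9 members (shSETD8 over shNull) lay between -0.04 for BAK1 and 0.19 for BAD. BCL2 had too few counts for an adjusted p in either of these tests. BCL2L1 and MCL1 were the abundant survival genes, BCL2 was close to unread in every library, and BAX was the more abundant effector. The differences between the 2 shSETD8 clones in PMAIP1, BBC3, BCL2L11 and BID were larger than any difference between the group means.

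**Figure D1:**
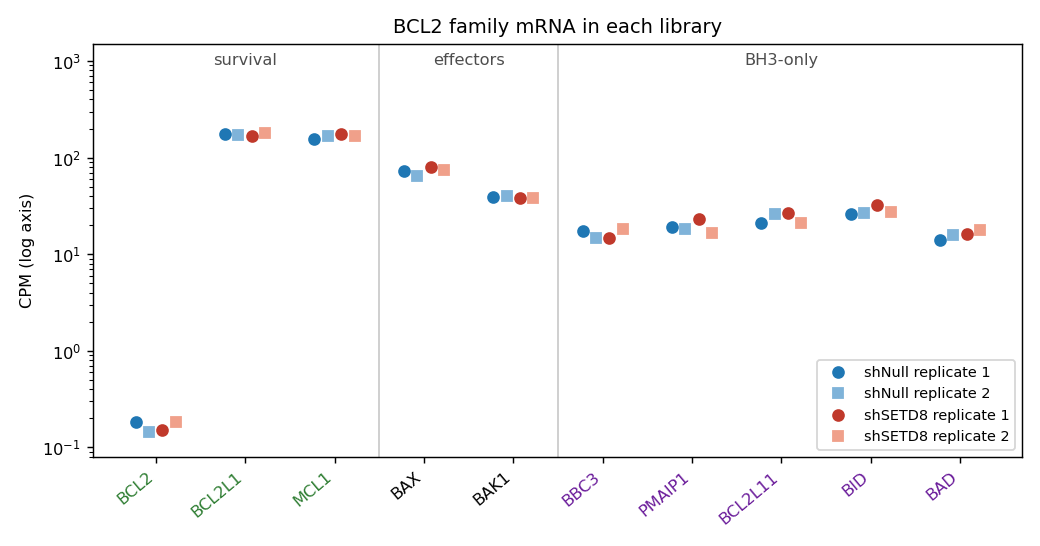
Normalised CPM (log axis) of the 10 BCL2 family genes, 1 point per library, in the order survival, effector and BH3-only. BCL2 sits between 0.144 and 0.184 CPM while the other 9 genes sit between 13.9 and 179 CPM, and within each gene the 4 libraries lie close together.

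Among the survival genes, BCL2, the founding member of the family (GRCh38 chr18:63123346-63320128, minus strand), was covered by 8 and 6 counts in shNull replicates 1 and 2 and by 8 and 9 counts in shSETD8 replicates 1 and 2. The groups overlapped. The exact 95% Poisson intervals of the counts ran from 2.20 to 13.1 for the lowest library and from 4.12 to 17.1 for the highest, and all 4 intervals overlapped; they cover counting error only, and no difference in BCL2 was detectable at this depth. BCL2 was removed by the filter on low counts and had no fold change in the main edgeR fit. Without the filter edgeR gave it a log2 fold change of 0.05 ± 0.56 (SE), and DESeq2 gave 0.05 ± 1.36 (SE).

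BCL2L1 (chr20:31664452-31723989, minus strand), whose main product is the survival protein BCL-xL, was at 174 and 171 CPM in the shNull clones against 168 and 179 CPM in the shSETD8 clones. The shSETD8 clones lay on either side of the controls. Its log2 fold change was 0.01 ± 0.09 (SE; 95% interval -0.21 to 0.23; edgeR adjusted p = 0.986). The same gene also encodes a short death-promoting isoform, which gene counts do not separate from BCL-xL. On the other strand the antisense gene ABALON overlaps 42.8% of its exonic bases; the library kit marks strand, but no source used here says whether counting did.

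MCL1 (chr1:150574551-150579738, minus strand) encodes a short-lived survival protein. It was at 156 and 166 CPM in the shNull clones against 174 and 166 CPM in the shSETD8 clones. Both shSETD8 libraries lay above both controls, with 166.38 against 166.25 CPM for the closest pair. MCL1 had a log2 fold change of 0.08 ± 0.09 (SE; 95% interval -0.15 to 0.30; edgeR adjusted p = 0.773).

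Of the effectors, BAX (chr19:48954815-48961798, plus strand) moves from the cytosol to mitochondria when activated. It was at 72.2 and 65.1 CPM in the shNull clones against 80.5 and 73.6 CPM in the shSETD8 clones. The groups did not overlap, with a gap of the lower shSETD8 library to the higher control smaller than the difference between the controls. BAX had a log2 fold change of 0.17 ± 0.11 (SE; 95% interval -0.11 to 0.44; edgeR adjusted p = 0.593), which was the lowest adjusted p of the 9 genes tested.

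BAK1 (chr6:33572547-33580293, minus strand), the effector that resides in the outer membrane without activation, was at 39.0 and 39.6 CPM in the shNull clones against 38.6 and 37.8 CPM in the shSETD8 clones. Both shSETD8 libraries lay below both controls, by little. BAK1 had a log2 fold change of -0.04 ± 0.10 (SE; 95% interval -0.30 to 0.22; edgeR adjusted p = 0.905). The annotation holds processed pseudogene copies of BAK1 (BAK1P1 and BAK1P2), and the handling of reads that match several places was not stated.

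Of the BH3-only genes, PMAIP1 (chr18:59899948-59904306, plus strand) encodes NOXA, which binds MCL1 and favours its breakdown. Its mRNA was at 19.3 and 18.3 CPM in the shNull clones against 23.3 and 16.4 CPM in the shSETD8 clones. The shSETD8 clones stood on opposite sides of the controls, 0.31 above the shNull mean in replicate 1 and -0.19 from it in replicate 2 on the log2 scale. Its log2 fold change was 0.08 ± 0.20 (SE; 95% interval -0.43 to 0.59; edgeR adjusted p = 0.908).

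BBC3 (chr19:47220822-47232766, minus strand) encodes PUMA, which binds all the survival proteins. It was at 17.3 and 14.7 CPM in the shNull clones against 14.7 and 18.4 CPM in the shSETD8 clones, so the groups overlapped. The clones were ordered the other way than for PMAIP1, with replicate 2 the higher. BBC3 had a log2 fold change of 0.05 ± 0.18 (SE; 95% interval -0.40 to 0.50; edgeR adjusted p = 0.938).

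BCL2L11 (chr2:111119378-111168447, plus strand) encodes BIM, which also binds all the survival proteins. It was at 20.9 and 25.8 CPM in the shNull clones against 26.4 and 21.1 CPM in the shSETD8 clones. Each group held 1 lower and 1 higher clone, and the groups overlapped. The log2 fold change was 0.02 ± 0.18 (SE; 95% interval -0.43 to 0.48; edgeR adjusted p = 0.974). The long noncoding gene MIR4435-2HG overlaps 11.9% of its exonic bases on the opposite strand.

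BID (chr22:17734138-17774770, minus strand), whose protein is cut by caspases to link death receptors to mitochondria, was at 26.1 and 26.6 CPM in the shNull clones against 32.2 and 27.1 CPM in the shSETD8 clones. Replicate 1 stood apart from the other 3 libraries. BID had a log2 fold change of 0.17 ± 0.13 (SE; 95% interval -0.17 to 0.51; edgeR adjusted p = 0.653).

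BAD (chr11:64269830-64284704, minus strand), whose protein is held in the cytosol when growth factor signalling phosphorylates it, was at 13.9 and 15.9 CPM in the shNull clones against 16.2 and 17.9 CPM in the shSETD8 clones. The groups did not overlap, though replicates of a group differed by more than the gap between groups. The log2 fold change of 0.19 ± 0.15 (SE; 95% interval -0.19 to 0.58; edgeR adjusted p = 0.662) was the highest of the 9. Exons of GPR137, on the opposite strand, overlap 28.6% of its exonic bases.

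**Figure D2:**
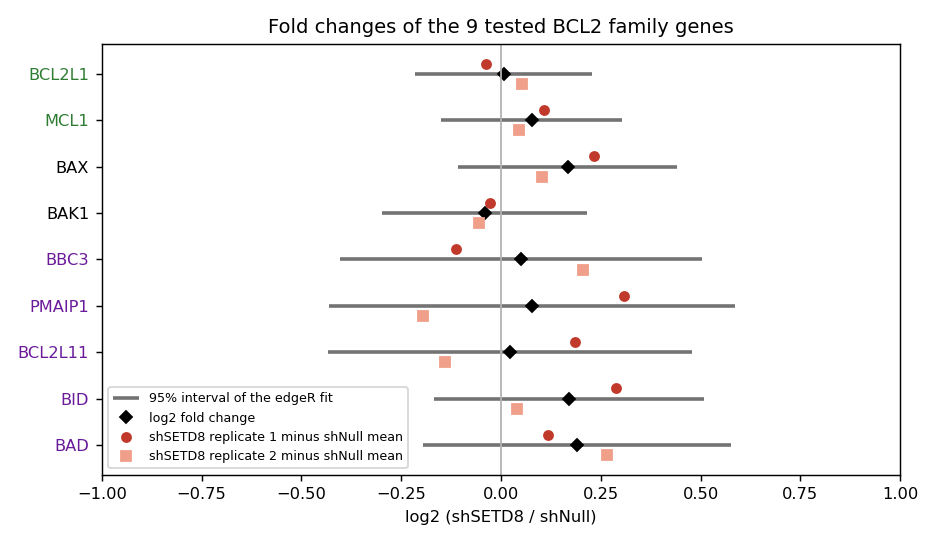
Log2 fold changes of the 9 tested genes (black diamonds) with the 95% interval of the edgeR fit (grey bars), and each shSETD8 library against the shNull mean (circle, replicate 1; square, replicate 2). Every interval crosses 0, and in BCL2L1, BBC3, PMAIP1 and BCL2L11 the 2 clones lie on opposite sides of it.

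Over the family, 9 genes passed the filter and 0 were called by edgeR at an adjusted p under 0.05, where 0% of 14546 genes were called over the whole table. At an unadjusted p under 0.05 edgeR gave 0 of the 9 members and 10.8% of all genes tested. DESeq2 also called 0 of the members, its lowest adjusted p among them being 0.787 for BAX, beside 1.94% of all genes; 0 of the 10 members had an unadjusted DESeq2 p under 0.05, against 9.15% of genes. The edgeR likelihood ratio test called 0 members and 1.7% of genes, and limma-voom 0 members and 0% of genes. Of the 9 members, 8 had a log2 fold change above 0, where 51.2% of all genes did, and their median of 0.08 stood beside 0.01 for all genes. The size of the change, taken without its sign, had a median of 0.08 in the members and of 0.15 among the 11604 genes with a mean of at least 100 counts.

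The groups did not overlap in 5 of the 10 members, where this held for 45.3% of all genes tested. MCL1, BAX, BID and BAD were the 4 with shSETD8 higher, beside 22.9% of genes, and BAK1 the 1 with shSETD8 lower, beside 22.4%. The intervals bound what these libraries could hide: in 8 of the 9 tested members the 95% interval lay within a 1.5-fold change in either direction, and for PMAIP1 its upper end was 1.502-fold. A change of 2-fold lay outside the interval of each of the 9. A miss of the threshold does not show that levels were equal, and these intervals rest on 4 libraries with a spread shared across genes.

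In 6 of the 9 members the shSETD8 clones differed from each other more than the shNull clones did. The median difference between replicates, without sign, was 0.15 on the log2 scale within shSETD8 and 0.09 within shNull over the 9 members; it was 0.21 and 0.10 over all genes with a mean of at least 100 counts. The gap between clones was widest for PMAIP1, where replicate 2 stood at -0.50 relative to replicate 1, followed by BCL2L11 at -0.33, BBC3 at 0.32 and BID at -0.25. For 5 of the 9 members the gap between the shSETD8 clones exceeded the size of the group difference. PMAIP1, BCL2L11 and BID were higher in replicate 1, the clone with less SETD8 mRNA, and BBC3 was higher in replicate 2. With 2 clones, no relation to the SETD8 level can be tested.

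Leaving out shSETD8 replicate 2 gave unadjusted edgeR p-values of 0.0266 for BID, 0.0298 for PMAIP1 and 0.0485 for BAX, with adjusted p-values of 0.103, 0.111 and 0.152. That is 3 of 9 members, in a fit where 32.2% of all genes had an unadjusted p under 0.05 and 17.2% were called. The log2 fold changes were then 0.29, 0.31 and 0.23. Without shSETD8 replicate 1 the same genes stood at 0.04, -0.20 and 0.10, so PMAIP1 had the opposite sign. With a library left out, edgeR called 0 members in each fit, beside 0% of genes without either shNull library and 9.55% without shSETD8 replicate 1. Those fits also gave 0 members at an unadjusted p under 0.05, beside 1.92%, 3.32% and 25.5% of genes. DESeq2 called 0 members in each, beside 0.119% and 0.395% of genes without shNull replicates 1 and 2, and 5.3% and 11.7% without shSETD8 replicates 1 and 2. At an unadjusted p under 0.05 it also gave 0 members, beside 1.57%, 2.71%, 13% and 18.3% of genes.

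Levels of different genes were compared per length, as RPKM (CPM divided by exonic length), with the exonic length taken from GENCODE protein-coding transcripts, since the transcripts present in D458 are not known. In shNull, BCL2L1 stood highest at 60.7 and 59.8 RPKM, followed by BAX at 51.1 and 46.1 RPKM and MCL1 at 38.2 and 40.7 RPKM. BAK1 came next at 17.6 and 17.9 RPKM. BAD followed at 10.5 and 12.0 RPKM, BID at 9.28 and 9.47 RPKM, PMAIP1 at 9.18 and 8.72 RPKM, BBC3 at 8.25 and 7.04 RPKM, and BCL2L11 at 3.43 and 4.23 RPKM. BCL2 was last at 0.0154 and 0.0123 RPKM.

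The order from BCL2L1 down to BAK1 was the same in every library, and BCL2L11 and BCL2 were last in every library. In between, BID, PMAIP1, BBC3 and BAD were not all separable: in shSETD8, PMAIP1 at 11.1 and 7.82 RPKM overlapped BID at 11.5 and 9.65 RPKM and BBC3 at 7.04 and 8.80 RPKM. BAD stood at 12.2 and 13.5 RPKM there. BCL2L1 made up 61.3% and 59.5% of the summed survival RPKM in shNull and 58.0% and 60.5% in shSETD8. MCL1 made up nearly all the rest, and BCL2 at most 0.0156%. BAX held 74.4% and 72.0% of the effector RPKM in shNull and 76.6% and 75.3% in shSETD8.

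By role, the survival genes together took 47.5% and 48.8% of the family's RPKM in shNull and 45.6% and 47.9% in shSETD8. The effectors took 33.0% and 31.1%, then 33.6% and 32.1%, in the same order of libraries. The BH3-only genes took 19.5% and 20.1%, then 20.8% and 20.0%. The summed survival level was 0.905 and 0.953 times the summed death level in shNull and 0.839 and 0.918 times in shSETD8. The groups overlapped, and shSETD8 replicate 1 had the lowest value of the 4 libraries.

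Survival was then set against death within each library, where depth cancels, as the mean log2 CPM of the 3 survival genes minus that of the 7 death genes. Gene length is a constant in such a difference, so its level has no meaning of its own and only libraries can be compared. The values were -0.49 and -0.57 in shNull replicates 1 and 2, and -0.67 and -0.48 in shSETD8 replicates 1 and 2. The 2 shSETD8 clones thus lay on either side of the controls. The group means were -0.53 ± 0.05 and -0.57 ± 0.14 (SD, n = 2 each), a difference of -0.05, smaller than the spread between replicates. BCL2 weighs as much as the abundant genes in this mean; with MCL1 and BCL2L1 alone, a version added after the values were seen, the difference was also -0.05. No p is given for the score; an exact permutation test of 2 against 2 libraries cannot give a two-sided p below 0.333.

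Against the effectors alone the survival mean was -1.54 and -1.54 in shNull and -1.64 and -1.48 in shSETD8. Against the BH3-only genes it was -0.07 and -0.18 in shNull and -0.28 and -0.07 in shSETD8. In both, shSETD8 replicate 1 was the lowest of the 4 libraries. In that clone BAX, BID, PMAIP1 and BCL2L11 each had their highest CPM of the 4 libraries, as did the survival gene MCL1, while BCL2L1 and BBC3 had their lowest.

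**Figure D3:**
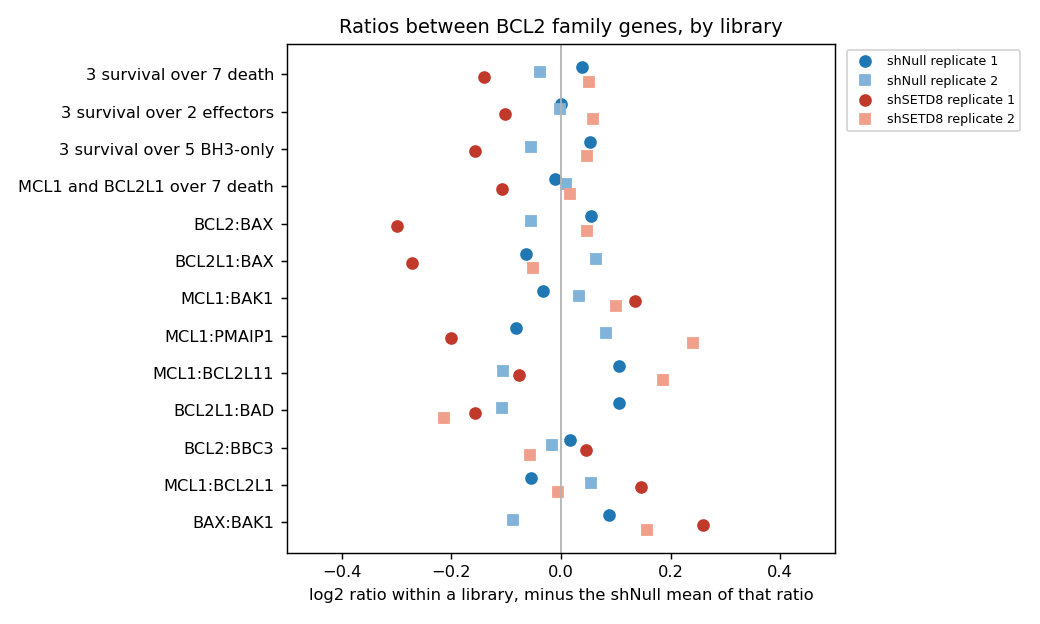
Log2 ratios between BCL2 family genes in each library, drawn as the difference from the shNull mean of the same ratio (circle, replicate 1, and square, replicate 2). All set survival against death genes except MCL1:BCL2L1 and BAX:BAK1, which stay within a role. For the 3 survival over 7 death genes, shSETD8 replicate 1 lies lowest and replicate 2 highest. MCL1:BAK1 and BAX:BAK1 lie higher and BCL2L1:BAD lower in both shSETD8 libraries. Among single genes, the groups did not overlap in 45.3% of all genes tested.

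The log2 ratio of BCL2L1 to BAX was 1.27 and 1.39 in shNull and 1.06 and 1.28 in shSETD8, with overlapping groups. For MCL1 to PMAIP1, a survival gene and the BH3-only gene whose product targets it, the ratio was 3.02 and 3.18 in shNull and 2.90 and 3.34 in shSETD8, so the clones bracketed the controls. MCL1 to BCL2L11 was 2.90 and 2.69 in shNull and 2.72 and 2.98 in shSETD8, and overlapped as well.

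The groups were apart for MCL1 to BAK1, at 2.002 and 2.067 in shNull and 2.17 and 2.14 in shSETD8. They were also apart for BCL2L1 to BAD, at 3.64 and 3.42 in shNull and 3.37 and 3.32 in shSETD8. BAX to BAK1, a pair added after its values were seen, was at 0.89 and 0.71 in shNull and 1.06 and 0.96 in shSETD8, a difference of 0.21 between the means. Groups that do not overlap are common with so few libraries: this held for 45.3% of all single genes tested. No such share was worked out for ratios of other gene pairs, so these separations are described only. Ratios with BCL2, such as BCL2 to BAX at -8.33 and -8.44 in shNull and -8.69 and -8.34 in shSETD8, rest on fewer than 10 counts and a prior count of 2.

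The wider family was read from a list of 14 other genes, of which 13 had a row and 8 passed the filter. edgeR and DESeq2 called 0 of them, and 2 had an unadjusted edgeR p under 0.05, both higher in shSETD8, where 5.65% of all genes tested were higher at that level. The 8 had a median log2 fold change of 0.12, with 6 above 0. The genes nearest to the threshold were BNIP3, BMF and BOK.

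BNIP3, a BH3-like mitochondrial protein known for mitophagy and as a hypoxia target, was at 44.9 and 44.1 CPM in the shNull clones against 56.8 and 71.6 CPM in the shSETD8 clones. Both clones lay above both controls by far more than the controls differed. The shSETD8 clones differed from each other by 0.33 on the log2 scale, while replicate 1, the lower of them, stood 0.35 above the shNull mean. Its log2 fold change was 0.53 ± 0.14 (SE), with an unadjusted p of 0.0121 and an edgeR adjusted p of 0.404. Without shSETD8 replicate 1 or 2 its edgeR adjusted p was 0.00284 or 0.0379, in fits that called 9.55% or 17.2% of all genes. By DESeq2 the adjusted p of BNIP3 was 0.0848 with all libraries and 0.000272 or 0.113 without those replicates. Without a shNull library it was 0.999 or above by both tools.

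BMF, a BH3-only gene whose protein is tethered to the actin cytoskeleton, was at 9.99 and 9.91 CPM in the shNull clones against 13.6 and 15.3 CPM in the shSETD8 clones. The shSETD8 clones differed from each other by less than their gap to the controls. The log2 fold change was 0.54 ± 0.15 (SE; unadjusted p = 0.0165; edgeR adjusted p = 0.404), and DESeq2 gave an adjusted p of 0.194. Without shSETD8 replicate 1 or 2 the adjusted p of BMF was 0.0254 or 0.0598 by edgeR, in the same fits with 9.55% or 17.2% of genes called, and 0.142 or 0.267 by DESeq2. Without a shNull library it was 0.999 or above by both.

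BOK, a BAX-like effector, was at 12.8 and 10.7 CPM in the shNull clones against 22.5 and 14.2 CPM in the shSETD8 clones. Replicate 1 stood further above the controls than replicate 2, and the log2 fold change of BOK was 0.64 ± 0.26 (SE; edgeR adjusted p = 0.467). BCL2L2, which encodes the survival protein BCL-w, was at 28.7 and 30.7 CPM in the shNull clones against 26.8 and 31.1 CPM in the shSETD8 clones (log2 fold change -0.04 ± 0.13 (SE); edgeR adjusted p = 0.939). BNIP3L, a relative of BNIP3 that also acts in mitophagy, had a log2 fold change of -0.22 ± 0.17 (SE; edgeR adjusted p = 0.641).

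BCL2L13 (0.16 ± 0.10), BCL2L12 (0.09 ± 0.14) and the autophagy gene BECN1 (0.07 ± 0.11) completed the tested genes, as log2 fold change ± SE, with edgeR adjusted p-values of 0.575, 0.839 and 0.836. The survival gene BCL2L10, the BH3-only genes BIK and HRK, and BCL2L14 and BCL2L15 had between 1 and 10 counts in each library and were removed by the filter. BCL2A1, another survival gene, was not analysed here.

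**Figure D4:**
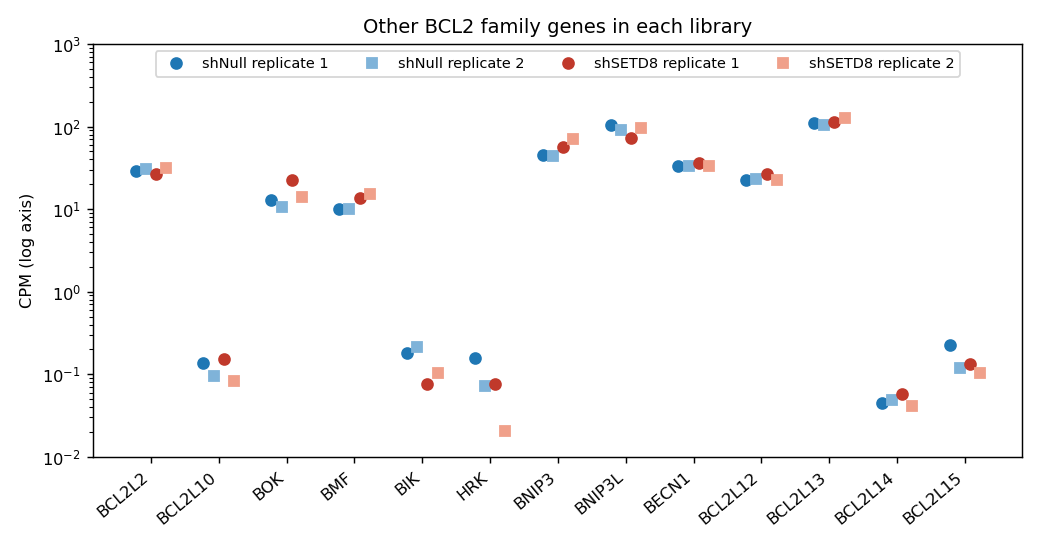
Normalised CPM (log axis) of the 13 other BCL2 family genes with a row, 1 point per library. BNIP3, BMF, BOK and BCL2L13 lie higher and BIK lower in both shSETD8 libraries than in both shNull libraries, where 22.9% and 22.4% of all genes tested did so; BCL2L10, BIK, HRK, BCL2L14 and BCL2L15 have 1 to 10 counts per library.

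The steps around the family were read from 6 more lists, and with the 8 tested genes above they came to 80 tested genes. The edgeR quasi-likelihood test called 0 of the 80. DESeq2 called 1, JUN, beside 1.94% of all genes, and the edgeR likelihood ratio test also called JUN (adjusted p = 0.00906), beside 1.7% of all genes. In the quasi-likelihood test 9 had an unadjusted edgeR p under 0.05. That is 11.3% of the 80, beside 10.8% of all genes tested.

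Downstream of the pore, 15 genes of the apoptosome and the caspases were tested. Of these, 0 had an unadjusted edgeR p under 0.05, beside 10.8% of all genes tested. The median log2 fold change of the 15 was 0.01. The lowest p was that of HTRA2, a protease released from mitochondria (0.24 ± 0.12 as log2 fold change ± SE; edgeR adjusted p = 0.514). ENDOG and DIABLO, also released from mitochondria, were at 0.36 ± 0.25 and 0.37 ± 0.30. APAF1, the scaffold of the apoptosome, was at 26.8 and 24.8 CPM in the shNull clones against 20.9 and 24.2 CPM in the shSETD8 clones. CASP8, which cuts BID, reached 0.544 CPM in its highest library.

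Of 6 genes for inhibitors of apoptosis proteins, 1 had an unadjusted p under 0.05: NAIP, at 28.9 and 28.5 CPM in the shNull clones against 22.1 and 22.3 CPM in the shSETD8 clones (log2 fold change -0.37 ± 0.11 (SE); edgeR adjusted p = 0.423). At that level were 10.8% of all genes tested, with 5.16% lower in shSETD8. NAIP has near-identical partial copies beside it in the genome, so its count is uncertain. XIAP, a direct caspase inhibitor, was at -0.03 ± 0.16, BIRC5, which encodes survivin, at 0.09 ± 0.10, BIRC6 at -0.23 ± 0.12 and BIRC2 at -0.09 ± 0.11, each as log2 fold change ± SE.

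Of 13 genes for mitochondrial channels and membrane dynamics, 1 had an unadjusted p under 0.05, the outer membrane channel VDAC3 at 153 and 150 CPM in the shNull clones against 173 and 183 CPM in the shSETD8 clones (log2 fold change 0.23 ± 0.09 (SE); edgeR adjusted p = 0.457). At that level were 10.8% of all genes tested, with 5.65% higher in shSETD8. VDAC2, the channel known to hold BAK at the membrane, was at 0.02 ± 0.09 as log2 fold change ± SE. MTCH2, a receptor for cleaved BID, was at 0.21 ± 0.09 with an edgeR adjusted p of 0.476. SLC25A6, an ADP/ATP carrier gene, was at -0.18 ± 0.09 and MFN2, which acts in mitochondrial fusion, at 0.20 ± 0.10.

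Among 11 death receptor genes, TNFRSF1A, the receptor of tumour necrosis factor, was at 0.430 and 0.433 CPM in the shNull clones against 0.820 and 1.58 CPM in the shSETD8 clones (log2 fold change 1.47 ± 0.46 (SE); edgeR adjusted p = 0.424), on 18 to 77 counts. DAXX, an adaptor and histone chaperone, was at 114 and 111 CPM in the shNull clones against 95.0 and 90.7 CPM in the shSETD8 clones (log2 fold change -0.28 ± 0.09 (SE); edgeR adjusted p = 0.424). These 2 had an unadjusted p under 0.05, in opposite directions, beside 5.65% of all genes higher and 5.16% lower. TRADD, an adaptor, was at 0.47 ± 0.21, and FAS, which stood at or below 0.362 CPM, at -1.07 ± 0.49.

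Of 16 genes for turnover and sequestration of family proteins, 0 had an unadjusted edgeR p under 0.05, beside 10.8% of all genes tested. HUWE1 and USP9X, which attach ubiquitin to MCL1 and remove it, had log2 fold changes of -0.10 ± 0.10 and -0.04 ± 0.12 (SE). DYNLL1, a dynein light chain that binds BIM, was at 0.11 ± 0.09. BAG3, a chaperone partner, had the lowest p of the list (0.47 ± 0.19; edgeR adjusted p = 0.472), followed by MOAP1, a BAX partner, at 0.27 ± 0.12, HSPA1B at 0.38 ± 0.17 and YWHAZ, a 14-3-3 gene, at -0.18 ± 0.08. HSPA1B shares its sequence with the near-identical HSPA1A, so its count is uncertain.

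The list of transcriptional regulators of family genes held 11 tested genes and included the gene called by DESeq2. At an unadjusted edgeR p under 0.05, 2 were higher and 1 lower, beside 5.65% and 5.16% of all genes tested. JUN, which can induce BCL2L11 and BBC3 in neurons, was at 51.1 and 69.5 CPM in the shNull clones against 97.7 and 133 CPM in the shSETD8 clones. DESeq2 gave it an adjusted p of 0.00392 where edgeR gave 0.368, at 0.93 ± 0.21 (log2 fold change ± SE). Without shNull replicate 1 the DESeq2 adjusted p of JUN was 0.9999, and without any of the other libraries it was at most 0.0106. EGR1 was at 8.72 and 22.2 CPM in the shNull clones against 27.6 and 91.3 CPM in the shSETD8 clones, and ATF3 at 17.0 and 13.8 CPM and at 9.57 and 10.1 CPM, each with an unadjusted edgeR p under 0.05 and adjusted p-values of 0.445 and 0.404. FOXO1 was at -0.33 ± 0.16 (edgeR adjusted p = 0.511). FOXO3, an inducer of BCL2L11 and BBC3, was at 0.01 ± 0.15, and DDIT3, the stress factor CHOP, at 0.19 ± 0.20, as log2 fold change ± SE.

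CDKN1A, a cell cycle inhibitor gene induced by many stresses, was at 35.1 and 18.3 CPM in the shNull clones against 35.5 and 28.2 CPM in the shSETD8 clones, with a log2 fold change of 0.25 ± 0.32 (SE; edgeR adjusted p = 0.793). CDKN1A was not called by edgeR or DESeq2, which called 0% and 1.94% of all genes. Its shNull libraries differed, replicate 2 minus replicate 1, by -0.94 on the log2 scale. These values are of mRNA; the proteins of this family are also set by phosphorylation, cleavage and turnover, which were not measured.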

How the data were processed

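The authors deposited whole-number counts per gene, not normalised, for stranded mRNA libraries of D458 cells. DESeq 1.32.0, STAR 2.4.0.1, FastQC 0.10.1, Trimmomatic 0.36 and build hg19 are named in the submitters' processing notes; no source used here names the counting program or its strand setting. Another 2 count columns matched no sample and were not used. Rows were found by symbol; 65 rows without a usable symbol stayed in the fits.

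The main test was edgeR 4.0.16 (R 4.3.3) quasi-likelihood on all 4 libraries, with TMM, filterByExpr (14546 genes kept) and Benjamini-Hochberg adjustment over all genes at 0.05. Dividing each log2 fold change by the root of its F gave standard errors, and 95% intervals use the fit's 5.23 degrees of freedom. DESeq2 1.42.0, limma-voom (limma 3.58.1), the edgeR likelihood ratio test and other settings were alternatives. Within-library ratios used log2 CPM with a prior count of 2. Positions and exon lengths are from GENCODE 29 on GRCh38 and were not joined to hg19 coordinates. The edgeR and DESeq2 steps were tested on simulated counts, which held no changes as small as those of the members.

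The members and lists were chosen with earlier results of these data known. Named genes were all members, all measured genes of the wider family, SETD8, CDKN1A, and up to 4 genes of lowest p per list; CASP8, XIAP, VDAC2, HUWE1, USP9X, DYNLL1, FOXO3 and DDIT3 were named for their role after their values were seen. The listed gene PIDD was matched as PIDD1. Replicates were numbered in record order, which pairs nothing. DESeq2 with each library left out, the BAX:BAK1 ratio and the survival score without BCL2 were added after seeing the data.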

Additional observations from a re-analysis of the deposited data

How the results depend on the processing

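Counts of called genes over the whole table depended on the test and the libraries: edgeR quasi-likelihood called 0, DESeq2 283 and the edgeR likelihood ratio test 247. With a library left out, edgeR called 0 to 2550, and DESeq2 20 and 51 without shNull replicates 1 and 2, and 754 and 1548 without shSETD8 replicates 1 and 2. The count of BCL2 family genes called was 0 under all 13 alternatives. The sign of small log2 fold changes turned with a library left out; the cause was not tested. For BCL2L1 edgeR gave -0.040 to 0.049 and DESeq2 -0.0023 without shNull replicate 2 and -0.036 without shSETD8 replicate 2. For BBC3 edgeR gave -0.12 to 0.20, and DESeq2 -0.057 and -0.12 without the same libraries. PMAIP1 ran from -0.20 to 0.31 and BCL2L11 from -0.15 to 0.18, with DESeq2 at -0.20 for PMAIP1 and at -0.12 and -0.15 for BCL2L11. MCL1, BAX, BAK1, BID and BAD kept their sign under all alternatives run. The survival to death difference was -0.14 to 0.05 with a library left out and -0.08 to -0.02 under the other alternatives. A library alone in its group takes its spread from the remaining pair. No paired analysis was possible because the labels give no replicate numbers that pair the clones. BCL2 is limited by its depth of 6 to 9 counts.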
